A study of Mus musculus musculus x M. m. domesticus and Mus musculus domesticus and Mus musculus with 12 samples.

Results

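Expression of genes that carry out meiotic silencing and the DNA damage response was examined in whole testis of sterile and fertile F1 house mice. The set was fixed by name, not by measured values, as *H2afx*, *Mdc1*, *Atr*, *Brca1*, *Topbp1*, *Setdb1* and *Trp53bp1*. Of these 7 genes, 6 were among the 7000 genes with deposited values, and *Setdb1* (ENSMUSG00000015697_at) was not analysed here. The study set 3 males of each of 4 genotypes, all aged 60 days, on 1 Affymetrix mouse expression array per male. *DxD* males were F1 offspring of a LEWES/EiJ mother and a WSB/EiJ father, both *M. domesticus*, and *MxM* males were F1 offspring of the *M. musculus* strains PWK/PhJ and CZECHII/EiJ. *DxM* males (LEWES/EiJ mother, PWK/PhJ father) were fertile hybrids, and *MxD* males (PWK/PhJ mother, LEWES/EiJ father) were sterile hybrids. All strains are wild-derived, and neither hybrid carries alleles of WSB/EiJ or CZECHII/EiJ. The members are known autosomal genes, so the reciprocal hybrids carry the same pair of LEWES/EiJ and PWK/PhJ alleles at each of them. The hybrids differ in their sex chromosomes, in the strain of the mother and in the parent that gave each allele.

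In pachytene spermatocytes the X and Y chromosomes stay largely unpaired, and their transcription is shut down in a domain called the sex body. BRCA1 loads on the unpaired chromosome axes and helps bring in the kinase ATR, which TOPBP1 activates. ATR phosphorylates the histone variant H2AX, and MDC1 binds the phosphorylated histone and carries the signal from the axes into the surrounding chromatin. Most of these proteins also act at DNA breaks in dividing cells, where the protein of *Trp53bp1* binds marked chromatin around the break. The comparison of sterile with fertile males asks whether transcripts of this machinery differ in the sterile hybrid. Arrays measure transcript levels, and the activity that matters in silencing is largely set by phosphorylation and by location on the chromosomes, which were not measured.

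Without pairing of males, limma called none of the 6 genes different between *MxD* males and the mean of the 3 fertile genotypes at an adjusted p of 5%, against 23.8% of all genes. At an unadjusted p under 0.05 there was 1 member, *H2afx*, against 37.4% of all genes. Differences ran from -0.0027 for *Brca1* to 0.28 for *H2afx* on the log2 scale, with 5 of 6 above 0 and a median of 0.11, beside a median of 0.0013 over all genes. The 95% intervals, which are not adjusted for the number of genes, spanned 0.917-fold to 1.29-fold over the 5 members other than *H2afx*, and 1.05-fold to 1.40-fold for *H2afx*. The replicate 1 males deviated together from their genotype means, with correlations of 0.568 to 0.756 between genotypes. For replicates 2 and 3 the correlations were weaker and uneven, from -0.051 to 0.565. With the replicate number as a block, limma called 2 of 6, *H2afx* and *Mdc1*, against 39.4% of all genes. In whole testis, fewer cells of a type and less RNA per cell cannot be told apart.

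**Figure D1:**
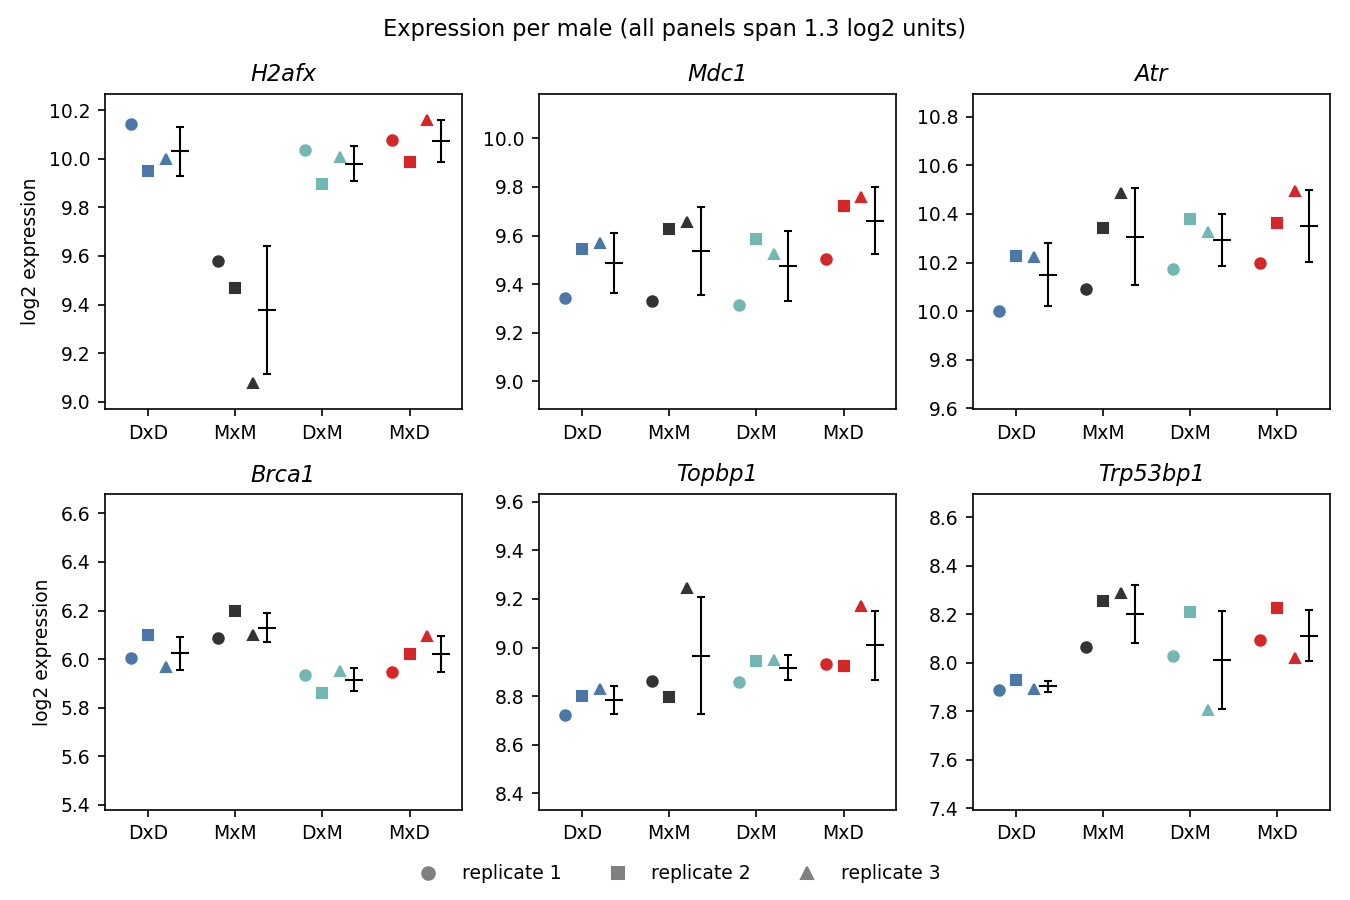
Log2 expression of the 6 genes in each of the 12 males by genotype, with the replicate number as the marker shape and the mean ± SD (n = 3) in black beside the points. *H2afx* is lowest in the 3 *MxM* males, and for no gene do the 3 *MxD* males lie apart from all 9 fertile males.

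Facts of the whole table bear on these tests. The arrays were quantile normalized, so the sorted values are identical in the 12 males. The replicate 1 males deviated together from their genotype means across genes, with correlations of 0.568 to 0.756 between genotypes. The mean variance among males of a genotype was highest in *MxM*, at 0.0879, and ran from 0.0147 to 0.0278 in the other genotypes. The median deviation of an array from the gene means was 0.075 in *MxM* replicate 3 and at most 0.012 in size in the other males. Of the autosomal genes that the study places in a cell type and for which this label was used here, the 367 mitotic genes were a median of 0.21 higher in *MxD* than in the fertile mean on the log2 scale. The 269 postmeiotic genes had a median difference of -0.23, the 324 meiotic genes one of -0.06, and the 142 somatic genes one of 0.11. Among the mitotic genes, 122 were called higher and 5 lower, and among the postmeiotic genes 2 were called higher and 118 lower. *Trp53bp1*, on chromosome 2, was the only member among the genes with such labels used here, and it had no cell type. *Cyp17a1*, a Leydig cell enzyme of androgen synthesis, was the only listed cell type marker that could be named. Its name came from the study's list of sterility-correlated genes, which were chosen on these same arrays for a difference in *MxD*. Its level is therefore no independent measure of Leydig cells. Its mean log2 expression was 11.23 ± 0.06 in *MxD*, above the 10.56 ± 0.14 in *DxM*, the 10.14 ± 0.41 in *DxD* and the 9.97 ± 0.63 in *MxM* (SD, n = 3). The labelled tissue could not be checked against markers chosen apart from these data. Whether the shift in cell types has a part in the members' differences was not tested.

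*H2afx* (ENSMUSG00000049932_at) encodes H2AX, the histone that ATR phosphorylates on the silenced chromosomes. Its log2 expression was 10.08, 9.99 and 10.16 in *MxD* replicates 1 to 3 and 10.04, 9.90 and 10.01 in *DxM*. It was 10.14, 9.95 and 10.00 in *DxD* and 9.58, 9.47 and 9.08 in *MxM*. The *MxM* males were below every male of the other genotypes, and those 3 genotypes overlapped with each other. Among members 1 of 6 showed this order, against 6.09% of all genes. The *MxD* mean was 0.70 above *MxM* (standard error 0.12, limma adjusted p = 0.0013), a 1.62-fold level. *H2afx* also rose by 0.65 from *MxM* to *DxD* (standard error 0.12, limma adjusted p = 0.0014) and by 0.60 from *MxM* to *DxM* (limma adjusted p = 0.0051). The contrast of *MxD* and *DxM* together with *MxM* and *DxD* together was called for 1 of 6 members, *H2afx*, against 21.2% of all genes. Between the reciprocal hybrids the log2 difference was 0.09 with a 95% interval of -0.16 to 0.35, and between *MxD* and *DxD* it was 0.04 with an interval of -0.21 to 0.30. Without *MxD* replicate 3 these differences were 0.05 and 0.0018.

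The difference of *H2afx* from the fertile mean therefore carries the low *MxM* values within that mean. It was 0.28 (standard error 0.10, limma adjusted p = 0.055), and with the replicate block the adjusted p was 0.031. Leaving out *MxM* replicate 3, the male with the lowest *H2afx*, gave 0.23 with an adjusted p of 0.022, and leaving out *MxM* replicate 1 gave 0.31 with an adjusted p of 0.022. With any other male left out the adjusted p stayed above 5%, up to 0.22 without *MxD* replicate 3, where the difference was 0.24. Without *MxM* replicate 3, *MxM* remained 0.55 below *MxD* (adjusted p = 0.0010). With the methods' t-test none of the 3 differences from *MxM* passed Benjamini-Hochberg adjustment at 5%, and the adjusted p ran from 0.068 to 0.27. The array was designed on laboratory mouse sequence, which is largely *M. domesticus*. In *MxM* alone, a lower signal from the *H2afx* transcripts and a lower level of them cannot be told apart. Both hybrids carry an *M. musculus* allele from PWK/PhJ. Their means, 9.98 in *DxM* and 10.07 in *MxD*, were near the 10.03 of *DxD*. Only *MxM* carries CZECHII/EiJ alleles. Whether probe mismatch has a part in the low *MxM* values was not tested.

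*Mdc1* (ENSMUSG00000061607_at) encodes the adaptor that binds phosphorylated H2AX and spreads the signal along chromatin. Its log2 expression was 9.50, 9.72 and 9.76 in *MxD* replicates 1 to 3 and 9.31, 9.59 and 9.53 in *DxM*. It was 9.34, 9.55 and 9.57 in *DxD* and 9.33, 9.63 and 9.65 in *MxM*. Replicate 1 was the lowest male in each of the 4 genotypes. The *MxD* males overlapped with the fertile males through *MxD* replicate 1 only. Each *MxD* male was above the 3 fertile males of its own number, by 0.10 to 0.23 over 9 of 9 pairs. Of the 6 members 1 had this order, against 12.7% of all genes.

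The log2 difference of *Mdc1* between *MxD* and the fertile mean was 0.16, or 1.12-fold, and within replicates 1, 2 and 3 it was 0.18, 0.14 and 0.18. Without a block its standard error was 0.09 (limma adjusted p = 0.23), and with the replicate block it was 0.04 (limma adjusted p = 0.011). Between the reciprocal hybrids *Mdc1* was 0.19 higher in *MxD*, with an adjusted p of 0.39 without the block and 0.030 with it. From *DxD* the difference was 0.17 (adjusted p = 0.27 without the block and 0.016 with it), and from *MxM* it was 0.12, which passed in neither fit (adjusted p = 0.44 and 0.062). These contrasts share the *MxD* males. Leaving out 1 male at a time, without the block, gave 0.11 (without *MxD* replicate 3) to 0.24 (without *MxD* replicate 1) against the fertile mean. The difference between the hybrids ran from 0.11 without *DxM* replicate 1 to 0.27 without *MxD* replicate 1, and that from *DxD* ran from 0.10 without *DxD* replicate 1 to 0.25 without *MxD* replicate 1. None of these fits called *Mdc1*. A fit without all replicate 1 males, chosen after seeing the data, did not call it either. There the differences from the fertile mean, *DxM* and *DxD* were 0.16, 0.18 and 0.18 (limma adjusted p = 0.10, 0.20 and 0.10). Over all genes, 45.5% had a larger absolute difference from the fertile mean than *Mdc1*, and 31.5% a larger one between the hybrids.

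**Figure D2:**
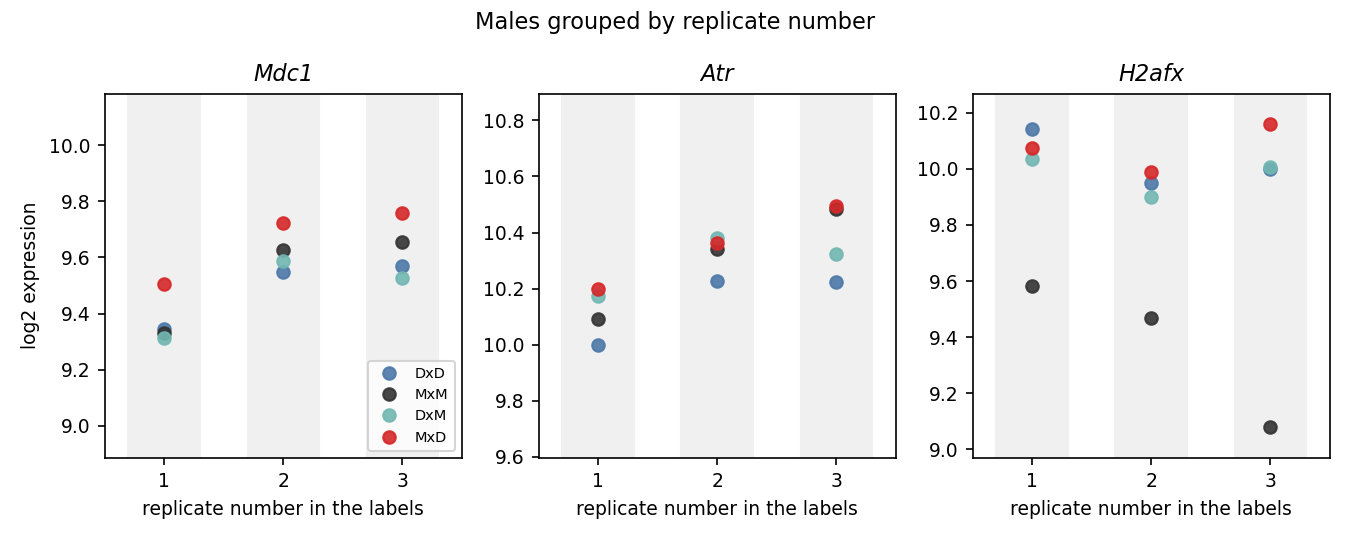
Log2 expression of *Mdc1*, *Atr* and *H2afx* with males grouped by the replicate number of the labels on the x axis and coloured by genotype, 1 point per male. *Mdc1* is highest in *MxD* within each number, *Atr* is lowest at replicate 1 in each genotype, and *H2afx* is lowest in *MxM* within each number.

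*Atr* (ENSMUSG00000032409_at) encodes the kinase at the centre of meiotic silencing. Its log2 expression was 10.20, 10.36 and 10.49 in *MxD* replicates 1 to 3 and 10.17, 10.38 and 10.32 in *DxM*. It was 10.00, 10.23 and 10.22 in *DxD* and 10.09, 10.34 and 10.49 in *MxM*. As for *Mdc1*, replicate 1 was the lowest male in all 4 genotypes, an order held by 2 of the 6 members and by 20.4% of all genes. *MxD* exceeded the same-numbered fertile male in 8 of 9 pairs. The log2 difference from the fertile mean was 0.10 with a 95% interval of -0.11 to 0.31 (limma adjusted p = 0.48), and the block left it above the threshold (adjusted p = 0.12). Only the difference from *DxD*, 0.20 or 1.15-fold, depended on the block, with an adjusted p of 0.21 without it and 0.021 with it. Leaving out 1 male moved the difference from the fertile mean to between 0.030 (without *MxD* replicate 3) and 0.18 (without *MxD* replicate 1), and that from *DxD* to between 0.13 (without *DxD* replicate 1) and 0.28 (without *MxD* replicate 1). The difference from *DxM*, 0.06, became -0.012 without *MxD* replicate 3.

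*Topbp1* (ENSMUSG00000032555_at) encodes the activator of ATR. Its log2 expression was 8.93, 8.92 and 9.17 in *MxD* replicates 1 to 3 and 8.86, 8.94 and 8.95 in *DxM*. It was 8.72, 8.80 and 8.83 in *DxD* and 8.86, 8.80 and 9.24 in *MxM*. Every *MxD* male was above every *DxD* male, while *MxD* overlapped with both *DxM* and *MxM*. The share of all genes with this order was not counted, and limma called 31% of all genes between *MxD* and *DxD*. The difference from *DxD* was 0.22 on the log2 scale, or 1.17-fold, with a limma adjusted p of 0.15 without the block and 0.049 with it. Without the block, the adjusted p of that difference was 0.043 with *MxM* replicate 3 left out and above 5% with any other male left out, up to 0.43 without *MxD* replicate 3, where the difference was 0.14. With replicate 1 alone as a block the call was also lost (adjusted p = 0.099). From the fertile mean the difference was 0.12 with a 95% interval of -0.08 to 0.32 (limma adjusted p = 0.38), and between the reciprocal hybrids it was 0.09 with an interval of -0.16 to 0.34. Without *MxD* replicate 3 these were 0.038 and 0.010.

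*Brca1* (ENSMUSG00000017146_at) encodes a sensor of unpaired axes and of broken DNA. Its log2 expression was 5.95, 6.02 and 6.09 in *MxD* replicates 1 to 3 and 5.93, 5.86 and 5.95 in *DxM*. It was between 5.97 and 6.10 in *DxD* and was 6.09, 6.20 and 6.10 in *MxM*. The sterile males lay among the fertile ones, with *DxM* at the low end and *MxM* at the high end. The log2 difference from the fertile mean was -0.0027 with a 95% interval of -0.12 to 0.12, so an interval of 0.917-fold to 1.09-fold, and 99.1% of all genes had a larger absolute difference. Between the reciprocal hybrids the difference was 0.11 with an interval of -0.04 to 0.25 (limma adjusted p = 0.42), and 0.07 without *MxD* replicate 3. *Brca1* is among the dimmest 25% of genes of the table.

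*Trp53bp1* (ENSMUSG00000043909_at) encodes a reader of chromatin around DNA breaks. Its log2 expression was 8.09, 8.22 and 8.02 in *MxD* replicates 1 to 3 and 8.03, 8.21 and 7.80 in *DxM*. It was 7.89, 7.93 and 7.89 in *DxD* and 8.06, 8.25 and 8.29 in *MxM*. The 3 *DxD* males were below every *MxM* and every *MxD* male, and the *DxM* males spread across the range. How many of all genes share this order was not counted. *MxD* exceeded the fertile mean by 0.07 (95% interval -0.11 to 0.26, limma adjusted p = 0.58) and *DxD* by 0.21 (interval -0.02 to 0.43, limma adjusted p = 0.15). The difference from the fertile mean was 0.016 without *MxD* replicate 2, and that from *DxM*, 0.10, was -0.0053 without *DxM* replicate 3. Between the species *Trp53bp1* was lower in *DxD*, and *DxD* minus *MxM* was -0.30 (standard error 0.10) with a limma adjusted p of 0.047. That call was lost when any *DxD* male, *DxM* replicate 1, *MxD* replicate 1 or 3, or *MxM* replicate 2 or 3 was left out, with adjusted p-values up to 0.12.

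**Figure D3:**
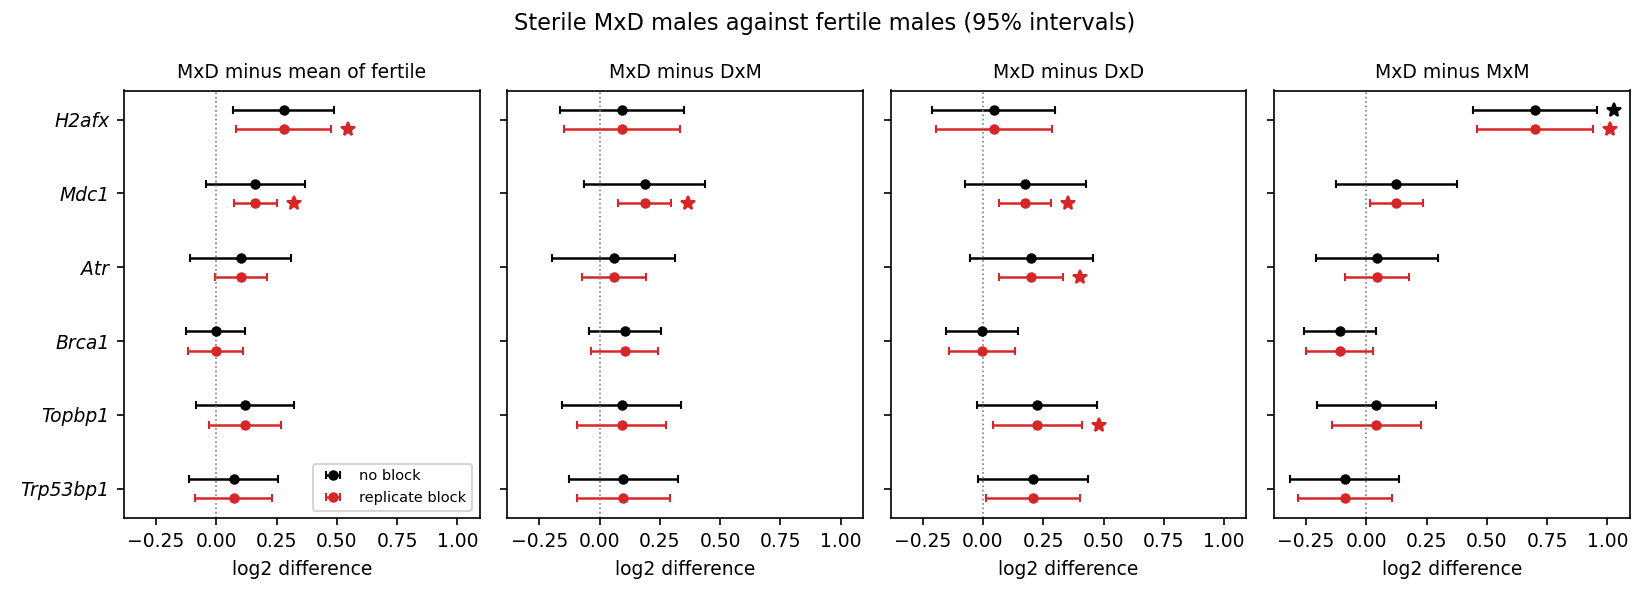
Log2 difference of *MxD* from the mean of the fertile genotypes and from each of them for the 6 genes, with 95% intervals from limma without a block (black) and with a block for replicate number (red). A star marks an adjusted p under 5%, and *H2afx* against *MxM* is the only star without the block.

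Without the block, limma called 0 of 6 members between the reciprocal hybrids, against 6.5% of all genes. At an unadjusted p under 0.05 the count was also 0 of 6, against 21.8%. Between *MxD* and *DxD* limma also called 0 of 6, against 31% of all genes. No member had an unadjusted p under 0.05 there, against 42%. Between *MxD* and *MxM* limma called 1 of 6, *H2afx*, against 30.3%. With the replicate block the counts were 1 of 6 between the hybrids, against 17.2% of all genes, and 3 of 6 between *MxD* and *DxD*, against 46%. These 3 were *Mdc1*, *Atr* and *Topbp1*, and all were higher in *MxD*. No member met the study's definition of a sterility-correlated gene (an unadjusted p under 0.05 between the hybrids and against *DxD* or *MxM*), against 19.8% of all genes by limma. For no member did the *MxD* males lie above or below all 9 fertile males, an order that 11% of all genes showed. With 6 members, a share of this size holds little information on its own.

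Among the fertile males, 2 of 6 members were called between *DxD* and *MxM*, against 31.9% of all genes. These were *H2afx*, higher in *DxD*, and *Trp53bp1*, higher in *MxM*. Between *DxM* and *DxD* none of 6 was called by limma, against 12.1% of all genes. None of them had an unadjusted p under 0.05, against 25.5% of all genes. Between *DxM* and *MxM* 1 of 6 was called, *H2afx*, against 16.9%. The log2 difference of *Brca1*, *DxM* minus *MxM*, was -0.21, and its limma adjusted p of 0.052 was just above the threshold. For *H2afx* both hybrid means, 9.98 ± 0.07 in *DxM* and 10.07 ± 0.09 in *MxD* (SD, n = 3), were near the 10.03 ± 0.10 of *DxD* and above the 9.38 ± 0.26 of *MxM*.

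**Figure D4:**
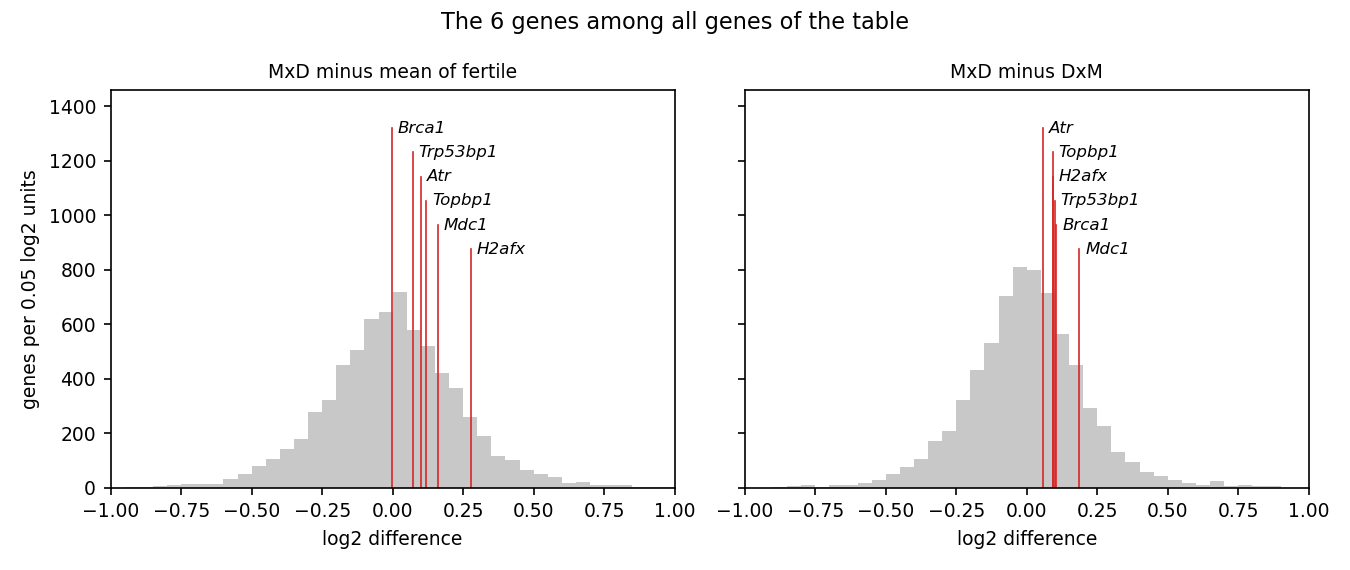
Histograms of the log2 difference over all 7000 genes (x axis limited to -1 to 1, with 12 genes outside it against the fertile mean and 15 against *DxM*), with the 6 genes as red lines. All 6 lines lie within the body of the distribution, at 0.28 or less against the fertile mean and at 0.19 or less between the hybrids.

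Over the 12 males, *Mdc1* and *Atr* followed each other most closely among the 15 pairs of members (Pearson r = 0.88), followed by *Atr* and *Topbp1* (r = 0.80). With genotype means removed the same pairs gave 0.96 and 0.72. The points share arrays and the replicate 1 shift, and 120 genes of the table were closer to *Mdc1* than *Atr* was. The gene most like *Mdc1* was ENSMUSG00000025613_at (r = 0.98), whose mean was 10.52 in *MxD* and, in the fertile *DxD*, *MxM* and *DxM* males, 10.30, 10.39 and 10.32. The gene most like *H2afx* was ENSMUSG00000025328_at (r = 0.98), with 6.69 in *MxD*, 6.70 in *DxD* and 6.69 in *DxM* against 5.75 in *MxM*. These identifiers were not paired with names here.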

How the data were processed

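Testis RNA of 12 males was measured on 1 array per male. The authors remapped probes to Ensembl genes with BRAINARRAY definitions (version 11), computed levels by PLIER, required detection in every male and applied quantile normalization. The log2 values they deposited for 7000 genes were used unchanged. The number of arrays limits the precision. Symbols came with the list of members. The sources used here name no other gene of the 111 pathway and 79 marker symbols listed for this work except *Cyp17a1*, a Leydig cell marker, so these lists could not be counted.

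Tests were two-sided and used limma 3.58.1 in R 4.3.3, fitted to all 7000 genes with 1 coefficient per genotype, with Benjamini-Hochberg adjustment over all genes at 5%. The members and lists were chosen with earlier results of these data known, and the orders of males that were counted were chosen after their values were seen. Labels of chromosome and cell type were those of the study for the 1997 genes whose labels were read, a part of its table. Correlations of the deviations of same-numbered males were 0.151 to 0.756 between *MxD* and the fertile genotypes, so blocked values are given beside these contrasts, and -0.0511 to 0.754 among the fertile genotypes. The labels do not say what the numbers mark, nor that males came from separate litters. Named genes were all members measured, and 2 of the genes most correlated with a member. The procedure was tested on simulated data. Figures used matplotlib 3.10.9 in Python 3.11.15.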

Additional observations from a re-analysis of the deposited data

Results flagged for a closer look

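For *H2afx* the difference between the fathers was not the same with the 2 kinds of mother. With *M. musculus* mothers, a *M. domesticus* instead of a *M. musculus* father went with a log2 difference of 0.70 (*MxD* minus *MxM*), and with *M. domesticus* mothers with one of 0.05 (*DxD* minus *DxM*). The interaction was 0.65 (standard error 0.17, limma adjusted p = 0.018), and 1 of 6 members passed, against 21.2% of all genes. The same contrast sets both hybrids against *MxM* and *DxD* together, so it does not single out the father or the mother. Between the reciprocal hybrids *H2afx* differed by 0.09 (limma adjusted p = 0.72). Leaving out each male in turn gave an interaction of 0.50 to 0.75, with adjusted p-values from 0.0067 to 0.048. The fathers and mothers of the 4 crosses come from different strains, so species and strain cannot be told apart.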

How the results depend on the processing

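Over 26 alternatives, 12 of which left out 1 male each, *DxM* against *DxD* kept a count of 0 members called. Over these alternatives 2.43% to 29.3% of all genes were called. Percentages beside counts in this paragraph are shares of all genes called by the same fit. Against the fertile mean the count of 0 became 2 with the replicate block (39.4%). It was also 2 with replicate 1 alone as a block (38.2%) and with the replicate block on centred arrays (41.1%). These last 2 fits were chosen after seeing the data. The count was 1 with a trended robust prior (23.9%), array weights (26.6%), an adjusted p under 10% (32.5%) or an unadjusted p under 0.05 (37.4%). It ran from 0 to 1 with each male left out (11.3% to 30%). Between the hybrids the same 3 block fits each gave 1 (17.2%, 16.1% and 19.3%). Leaving out males gave 0 to 0 (2.46% to 9.53%). Against *DxD* these block fits gave 3, 2 and 3 (46%, 44.5% and 47.2%), and leaving out males 0 to 1 (21.9% to 37.2%). *Topbp1* was not called with replicate 1 alone as a block. Against *MxM* the replicate block on centred arrays gave 2 (45.4%), and leaving out males gave 1 to 1 (21.2% to 30.8%). Both forms of the methods' t-test gave 0, with 0.043% of all genes called at unequal and 6% at equal variances. *DxD* against *MxM* gave 1 on centred arrays (32.5%) and without the replicate 1 males (29.6%). That comparison gave 0 with both t-tests (6.69% and 19.7%) and 1 to 2 with males left out (23.8% to 36.5%). *DxM* against *MxM* gave 2 with the replicate block (27.4%, *Brca1* adjusted p = 0.029), array weights (26.3%) and replicate 1 as a block (27.2%). It also gave 2 at an adjusted p under 10% (23.1%) and at an unadjusted p under 0.05 (29.5%). Both t-tests gave 0 (0.057% and 2.56%), and leaving out males gave 1 to 1 (10.3% to 20%). The interaction of the father gave 2 at an unadjusted p under 0.05 (34.2%). The cause of these changes was not tested.

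Signs turned for *Brca1*, *Atr* and *Trp53bp1*. *Brca1* against the fertile mean was 0.0047 on centred arrays, with or without the replicate block, 0.027 without the replicate 1 males and -0.039 to 0.034 with each male left out. Against *DxD* it was 0.024 without the replicate 1 males and -0.040 to 0.034 with each male left out. Between the hybrids, leaving out each male gave *Atr* -0.012 to 0.14 and *Trp53bp1* -0.0053 to 0.20. Among the fertile genotypes not every same-numbered pair correlated, so the block is given for them here only. The pathway lists were not run, as their symbols could not be paired with identifiers. For *Mdc1*, a difference of 0.16 from the fertile mean was not called without the block, where its standard error was 0.09.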

Other observations

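With genotype means removed, the correlation of *H2afx* over the 12 males was -0.60 with *Mdc1*, -0.67 with *Atr*, -0.64 with *Topbp1* and -0.58 with *Trp53bp1*, while that with *Brca1* was 0.16. *MxM* replicate 3 had the lowest *H2afx* of all males, at 9.08, and the highest *Topbp1*, at 9.24. The SD of *H2afx* was 0.26 in *MxM* and 0.07 to 0.10 in the other genotypes (n = 3). The *MxM* males therefore weigh most in its correlations. These correlations and values are descriptions over arrays that share a replicate shift, and no test was made.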
